A study of Mus musculus with 12 samples.

Results

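The 10 genes described here activate long-chain fatty acids or carry them into and through the cell. They are Acsl1, Acsl3, Acsl4, Acsl5, Acsl6, Acsbg1, Slc27a1, Slc27a3, Slc27a4 and Fabp7, chosen by name, and all 10 were found among the 24108 genes of the count table. All 10 also passed the filter on low counts that left 13745 genes for testing. Gene expression was measured by bulk RNA sequencing of neural progenitor cells (NPCs) from the subventricular zone (SVZ) of postnatal mouse brains, taken at P9 to P12 and labelled C57BL/6. The 4 groups of 3 libraries each were co-cultured p53-/- NPCs, co-cultured p53+/+ NPCs, p53-/- NPCs grown alone and p53+/+ NPCs grown alone, all kept in culture for 48 h. Each group had 1 library under each of 3 codes of the count table, 17_9, 25_9 and 1_10, called experiments here. In co-culture, NPCs were plated on monolayers of primary brain microvascular endothelial cells (bmvECs) and then taken off by selective trypsinization, while NPCs alone grew on laminin. Cells of all 4 groups carried floxed p53 alleles (p53 LoxP/LoxP): an adenovirus expressing iCre from the CMV promoter gave the p53-/- cells, and an adenovirus with that promoter and no Cre was given to the p53+/+ cells. NPCs were used within few passages after infection, so loss of p53 was recent and was induced in culture.

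A fatty acid must be joined to coenzyme A before it can be built into a membrane lipid, stored or oxidised. The Acsl enzymes, the bubblegum synthetase Acsbg1 and the fatty acid transport proteins of the Slc27a family carry out this step. Some Slc27a proteins also promote uptake at the membrane. The Acsl enzymes differ in the fatty acids they prefer and in where in the cell they sit: Acsl4 favours arachidonic acid and other polyunsaturated fatty acids, Acsl6 is enriched in brain and is linked to docosahexaenoic acid there, and Acsl3 sits at the endoplasmic reticulum and on lipid droplets. Fabp7, the brain lipid binding protein, is a carrier of polyunsaturated fatty acids that marks radial glia and SVZ progenitors.

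The promoter windows of 4 genes are shown because co-culture or loss of p53 changed these genes and the first 3 belong to 1 family yet moved in opposite directions. All 10 genes matched the RefSeq promoter table (build GRCm38.p6), with 15 annotated windows between them. The 250 bases before the annotated start are given 5′ to 3′ on the gene's strand. Capitals mark AGGTCA, the half-site of nuclear receptors, searched on both strands.
Acsl6, chr11:54303574-54303823, plus strand: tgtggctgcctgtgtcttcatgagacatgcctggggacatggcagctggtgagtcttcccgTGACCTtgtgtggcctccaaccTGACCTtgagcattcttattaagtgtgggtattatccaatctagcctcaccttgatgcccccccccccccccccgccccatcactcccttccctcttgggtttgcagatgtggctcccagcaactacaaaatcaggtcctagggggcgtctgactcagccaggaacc
Acsl3, chr1:78657575-78657824, plus strand: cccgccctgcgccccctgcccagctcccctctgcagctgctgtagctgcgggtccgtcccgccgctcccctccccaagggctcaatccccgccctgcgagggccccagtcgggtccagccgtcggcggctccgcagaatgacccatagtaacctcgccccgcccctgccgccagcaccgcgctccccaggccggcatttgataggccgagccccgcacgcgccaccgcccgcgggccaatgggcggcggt
Acsl4, chrX:142390536-142390785, minus strand: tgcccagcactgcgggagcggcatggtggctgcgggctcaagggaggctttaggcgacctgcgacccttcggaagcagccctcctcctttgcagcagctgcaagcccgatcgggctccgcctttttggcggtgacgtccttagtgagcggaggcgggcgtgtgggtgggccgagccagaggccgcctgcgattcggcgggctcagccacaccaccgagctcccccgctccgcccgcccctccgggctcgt
Slc27a3, chr3:90389939-90390188, minus strand: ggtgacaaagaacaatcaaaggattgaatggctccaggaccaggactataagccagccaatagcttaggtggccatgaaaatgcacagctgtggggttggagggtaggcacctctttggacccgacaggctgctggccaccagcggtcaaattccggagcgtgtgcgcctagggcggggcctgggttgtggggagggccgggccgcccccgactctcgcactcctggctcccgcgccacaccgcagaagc
The half-site was in 2 of the 15 windows. It occurred at both -189 to -184 and -167 to -162 from the start in the Acsl6 window shown, in reverse orientation, and once in the Fabp7 window, while the other 2 annotated Acsl6 windows held none. Over all 32851 promoter windows, 14.0% held it. The full element for PPAR receptors, AGGTCANAGGTCA, was in 0.0335% of all windows, and a p53 response element with a spacer of up to 13 bases was in 0.0639%. Neither was in any of the 15 windows. A match of letters is a description and was not tied to binding. The study measured p53 binding by CUT&RUN in wild-type NPCs alone and in co-culture, and those data were not used here.

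The targeted gene, Trp53, was far lower in both p53-/- groups. It averaged 17.1 ± 2.99 CPM in p53-/- co-culture, against 68.8 ± 8.84 CPM in co-cultured p53+/+ NPCs, and 14.6 ± 2.82 CPM in p53-/- NPCs alone, against 95.2 ± 14.2 CPM in p53+/+ NPCs alone (SD, n = 3 each; CPM, read counts scaled to a common library size with TMM factors). Total counts were between 16509710 and 22245224 per library. The 8 markers of neural progenitors summed to between 7311 and 7505 CPM in p53-/- co-culture, wholly below the 8777 to 9962 CPM in co-cultured p53+/+ NPCs, and to between 6393 and 7830 CPM in p53-/- NPCs alone, against 7654 to 9460 CPM in p53+/+ cells alone. None of the 8 was called with loss of p53, or 1 higher and 2 lower in co-culture with experiment as a block in the fit. In co-culture against NPCs alone, 1 was higher and 1 lower in p53-/- NPCs, and 2 and 2 in p53+/+ NPCs. With the block these were 2 and 1, and 3 and 2. The 20 endothelial markers summed to between 133 and 163 CPM in p53-/- co-culture, between 146 and 220 CPM in co-cultured p53+/+ NPCs, between 35.6 and 47.6 CPM in p53-/- NPCs alone and between 34.5 and 40.2 CPM in p53+/+ cells alone. Called higher in co-culture were 17 of the 18 tested in p53-/- NPCs and 18 of 18 in p53+/+ NPCs, and none was called with loss of p53. With that block, 2 of the 18 were lower in co-culture with loss of p53, and the median log2 change of the 18 there was -0.34. Of other markers, 2 of 4 for neuroblasts and 2 of 6 for mural cells and fibroblasts were higher with loss of p53 in NPCs alone, and 1 and 0 in co-culture (with the block 3 and 2 higher alone, and 2 and 3 higher with 1 lower each in co-culture). The neuroblast markers summed to 46.7 to 84.6 CPM in p53-/- and 56.7 to 120 CPM in p53+/+ co-culture. In NPCs alone their sums were 34.0 to 53.5 CPM in p53-/- and 32.7 to 53.7 CPM in p53+/+ cells. The sums of the 2 genotypes thus overlapped in both conditions. A sum mostly follows its most abundant markers. The median log2 change of the 4 with loss of p53 was 0.65 alone and 0.53 in co-culture, against 0.05 and 0.02 over all genes. For oligodendrocytes, 1 of 2 markers tested was higher with loss of p53 in co-culture, with or without the block. In co-culture against NPCs alone, 2 of 6 mural and fibroblast markers were higher and 1 lower in p53-/- NPCs. In p53+/+ NPCs 3 were higher and 1 lower, and with the block 4 were higher in p53-/- NPCs. Of neuroblast markers, none was higher in p53-/- and 1 in p53+/+ NPCs, or 2 and 1 with the block. Of oligodendrocyte markers, 1 was higher in each genotype, or 2 in p53-/- NPCs with the block. The 1 microglial marker tested was higher in both. Shares of all genes follow below. Cdh5, which defines endothelial cells, averaged 21.6 ± 3.11 CPM in p53-/- co-culture, 28.5 ± 8.60 CPM in co-cultured p53+/+ NPCs, 0.0313 ± 0.0272 CPM in p53-/- NPCs alone and 0.0331 ± 0.0573 CPM in p53+/+ cells alone (SD, n = 3 each). The part of these markers in the results below was not tested, and in bulk RNA a change in the mix of cells and a change of RNA per cell cannot be told apart. The libraries of experiment 17_9 grown alone stood apart in Acta2, a smooth muscle actin, with 765 CPM in the p53-/- one and 432 CPM in the p53+/+ one, against 14.0 to 63.6 CPM in the other 10 libraries. Their part was measured by leaving both out, and is given where a call of the 10 genes or of the gene lists below depended on them.

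Levels per length set Fabp7 and Acsbg1 far above the rest in every group. Divided by exon length, Fabp7 stood at 2346 ± 303 CPM per kb in p53-/- co-culture, 2628 ± 111 CPM per kb in co-cultured p53+/+ NPCs, 3088 ± 383 CPM per kb in p53-/- NPCs alone and 3348 ± 430 CPM per kb in p53+/+ cells alone (SD, n = 3 each). Acsbg1 followed, at 403 ± 56.3, 466 ± 29.0, 225 ± 25.9 and 275 ± 36.8 CPM per kb in the same order of groups. In p53+/+ NPCs alone, Slc27a1 (41.2 ± 3.28 CPM per kb) and Acsl3 (40.0 ± 4.10 CPM per kb) came next and did not differ beyond their spread. Slc27a4 (13.4 ± 1.69), Acsl4 (13.3 ± 1.62) and Acsl5 (12.5 ± 1.47) lay together below them, again within their spread of each other. Acsl6 (6.30 ± 0.642), Slc27a3 (4.99 ± 0.327) and Acsl1 (2.52 ± 0.480 CPM per kb) were lowest. In p53+/+ co-culture Acsl6 stood at 21.8 ± 2.56 CPM per kb, above Slc27a4 (15.2 ± 1.52), Acsl5 (11.6 ± 1.01) and Acsl4 (6.89 ± 1.38 CPM per kb). In p53-/- co-culture it was at 17.3 ± 1.51 CPM per kb, with all 3 libraries above those of Slc27a4 (14.3 ± 2.49). Acsl1 was the lowest of the 10 genes in both groups of p53+/+ NPCs. In p53-/- NPCs alone it had the lowest mean (2.55 ± 0.498 CPM per kb), but overlapped with Slc27a3 (3.11 ± 0.385 CPM per kb). In p53-/- co-culture, Acsl1 (2.43 ± 0.0910) and Slc27a3 (2.49 ± 0.127 CPM per kb) did not differ beyond their spread.

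**Figure D1:**
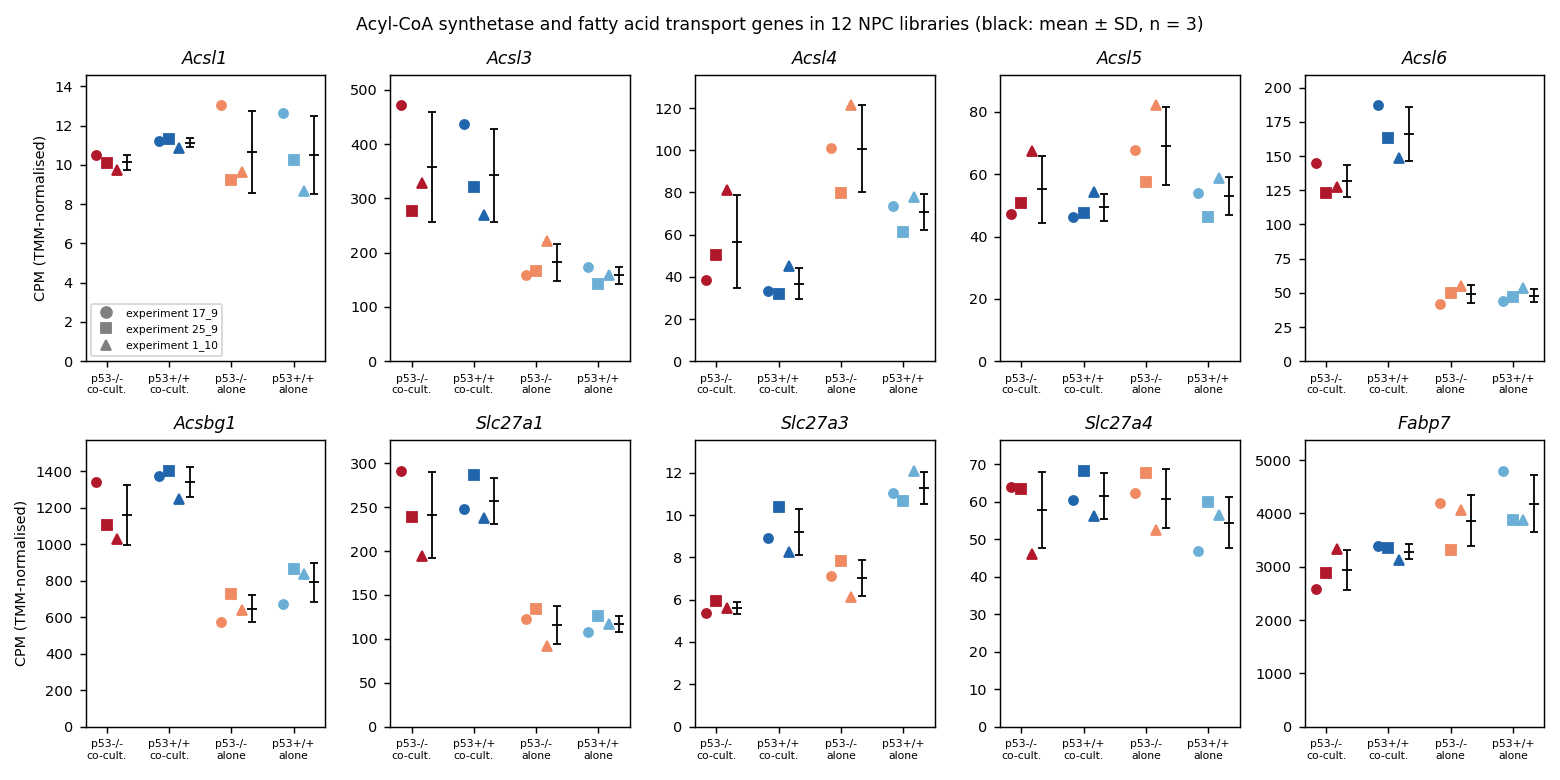
TMM-normalised CPM (linear axes from 0) of the 10 genes in each library of the 4 groups, with p53-/- left of p53+/+ and co-culture left of NPCs alone. Symbols give the experiment and the black bar is the mean ± SD of 3 libraries. Acsl6 sat between 123 and 187 CPM in the 6 co-culture libraries and between 42.1 and 55.1 CPM in the 6 libraries of NPCs alone.

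Co-culture on bmvECs was compared first with NPCs alone on laminin, within each genotype. In p53-/- NPCs, 4 of the 10 genes were higher in co-culture and 2 were lower, where 18.8% of all 13745 genes tested were called higher and 17.0% lower (edgeR quasi-likelihood test, Benjamini-Hochberg adjusted p under 0.05). In p53+/+ NPCs, 4 were higher and 1 was lower, where 21.2% of all genes were called higher and 18.3% lower. Libraries of an experiment deviated together, and with experiment added to the fit as a block, 4 were higher and 3 lower in p53-/- NPCs, where 24.3% and 23.2% of all genes were, and 4 were higher and 2 lower in p53+/+ NPCs, where 26.2% and 24.1% were. The 4 higher genes were Acsl3, Acsl6, Acsbg1 and Slc27a1 in both genotypes. The groups did not overlap for these 4 in either genotype, as held for 23.3% of all genes in p53-/- and 27.9% in p53+/+ NPCs in that direction. The median log2 change of the 10 genes was -0.07 in p53-/- NPCs, against -0.01 over all genes, and 0.13 in p53+/+ NPCs, against 0.00 over all genes, so the genes moved both ways.

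Acsl6, the brain-enriched synthetase, had the largest change of the 10 genes in both genotypes. It was at 145, 123 and 128 CPM in the p53-/- co-culture libraries of experiments 17_9, 25_9 and 1_10, against 42.1, 49.7 and 55.1 CPM in p53-/- NPCs alone. In co-cultured p53+/+ NPCs it was at 187, 163 and 148 CPM, against 43.8, 46.9 and 53.4 CPM in p53+/+ NPCs alone. The lowest co-culture library, at 123 CPM, thus lay far above the highest library of NPCs alone, at 55.1 CPM. The log2 change was 1.43 ± 0.14 (SE, a fold of 2.69, adjusted p = 1.36e-05) in p53-/- NPCs and 1.79 ± 0.14 (a fold of 3.46, adjusted p = 1.76e-06) in p53+/+ NPCs (edgeR, n = 3 each).

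Acsl3, the synthetase of the endoplasmic reticulum and lipid droplets, was also higher, with a wide spread among co-culture libraries. It was at 471, 276 and 328 CPM in p53-/- co-culture, against 158, 167 and 222 CPM in p53-/- NPCs alone, for experiments 17_9, 25_9 and 1_10. In p53+/+ NPCs the values were 436, 321 and 269 CPM in co-culture, against 174, 142 and 159 CPM alone. The library of experiment 17_9 was the highest of its group in both co-culture groups. Its log2 change was 0.98 ± 0.22 (SE, adjusted p = 0.00430) in p53-/- NPCs and 1.11 ± 0.22 (adjusted p = 0.00160) in p53+/+ NPCs (edgeR, n = 3 each).

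Acsbg1, which activates long and very long chain fatty acids and is expressed in glia of the brain, was high everywhere and higher still in co-culture. Levels were 1343, 1107 and 1032 CPM in p53-/- co-culture, against 576, 725 and 642 CPM in p53-/- NPCs alone, in the order of experiments above. In p53+/+ NPCs the values were 1374, 1405 and 1247 CPM in co-culture, against 670, 866 and 838 CPM alone. On the log2 scale it changed by 0.84 ± 0.14 (SE, adjusted p = 0.000786) in p53-/- NPCs and 0.76 ± 0.14 (adjusted p = 0.00109) in p53+/+ NPCs (edgeR, n = 3 each). Within experiments, the log2 ratio of co-culture to alone was largest in 17_9 in both genotypes, at 1.22 in p53-/- and 1.04 in p53+/+ NPCs, against 0.57 to 0.70 in the other experiments.

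Slc27a1, the transport protein known from muscle and fat as FATP1, was higher in co-culture in both genotypes. It was at 292, 239 and 194 CPM in p53-/- co-culture, against 122, 134 and 91.4 CPM in p53-/- NPCs alone. In p53+/+ NPCs the values were 247, 287 and 237 CPM in co-culture, against 108, 126 and 117 CPM alone. The lowest co-culture library, at 194 CPM, lay above the highest library of NPCs alone, at 134 CPM. The log2 change was 1.06 ± 0.17 (SE, a fold of 2.08, adjusted p = 0.000582) in p53-/- NPCs and 1.14 ± 0.17 (a fold of 2.20, adjusted p = 0.000254) in p53+/+ NPCs (edgeR, n = 3 each). The other transport proteins did not follow it. Slc27a4, known as FATP4, changed by -0.07 ± 0.16 in p53-/- NPCs and by 0.18 ± 0.16 in p53+/+ NPCs on the log2 scale (SE, adjusted p = 0.746 and 0.382 by edgeR), with overlapping groups. Slc27a3 changed by -0.32 ± 0.16 and -0.29 ± 0.16 (adjusted p = 0.144 and 0.162 by edgeR). Its co-culture libraries nevertheless all lay below those of NPCs alone in both genotypes, as did those of 21.5% of all genes in p53-/- and 25.7% in p53+/+ NPCs.

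Acsl4, the synthetase of polyunsaturated fatty acids, went the other way. It was at 38.4, 50.5 and 81.1 CPM in p53-/- co-culture, against 101, 79.8 and 121 CPM in p53-/- NPCs alone, for experiments 17_9, 25_9 and 1_10. The co-culture library of experiment 1_10 lay just above the lowest library of NPCs alone, so these groups overlapped, although co-culture was the lower of the pair within each experiment. In p53+/+ NPCs the values were 33.1, 31.9 and 45.2 CPM in co-culture, against 73.6, 61.1 and 77.7 CPM alone, with no overlap. Its log2 change was -0.83 ± 0.24 (SE, 1.78-fold lower, adjusted p = 0.0186) in p53-/- NPCs and -0.95 ± 0.25 (1.93-fold lower, adjusted p = 0.00879) in p53+/+ NPCs (edgeR, n = 3 each). The call in p53-/- NPCs was lost in 5 of 15 fits that left out a library or an experiment. These were the fits without the co-culture library of experiment 17_9 (-0.62, adjusted p = 0.0724), that of 25_9 (-0.76, 0.0687), the p53-/- library of 1_10 alone (-0.69, 0.0615), the whole of experiment 17_9 (-0.60, 0.161) and that of 25_9 (-0.90, 0.0838). In p53+/+ NPCs it was lost in 1 of 15, without experiment 25_9 (-0.95, adjusted p = 0.0761).

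Fabp7, the most abundant of the 10 genes, moved little. It was at 2585, 2878 and 3335 CPM in p53-/- co-culture, against 4198, 3312 and 4069 CPM in p53-/- NPCs alone. In p53+/+ NPCs the values were 3385, 3343 and 3126 CPM in co-culture, against 4806, 3878 and 3870 CPM alone. The groups overlapped in p53-/- but not in p53+/+ NPCs. On the log2 scale it changed by -0.40 ± 0.14 in p53-/- NPCs, which passed the threshold (SE, adjusted p = 0.0391), and -0.35 ± 0.14 in p53+/+ NPCs, which did not (adjusted p = 0.0597, edgeR, n = 3 each). With the experiment number as a block, both passed, at an adjusted p of 0.0286 in p53-/- and 0.0454 in p53+/+ NPCs. The call in p53-/- NPCs was lost in 7 of 15 fits that left out a library or an experiment, with changes between -0.50 and -0.23. The fits that lost it left out any of the 3 experiments (adjusted p between 0.0671 and 0.282, the highest without 17_9), the p53-/- co-culture library of 17_9 or 25_9 (0.122 and 0.101), or the p53-/- library of 17_9 or 1_10 alone (0.117 and 0.0822). It was also lost without both libraries high in Acta2, at -0.34 ± 0.14 (adjusted p = 0.0824).

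The remaining Acsl genes showed no call in co-culture. Acsl1, the main synthetase of liver, fat and muscle, lay between 8.65 and 13.0 CPM in all 12 libraries, and its log2 change was -0.07 ± 0.18 in p53-/- NPCs and 0.09 ± 0.18 in p53+/+ NPCs (SE, adjusted p = 0.784 and 0.725 by edgeR). The 95% interval of that change ran between -0.46 and 0.31 in p53-/- NPCs and between -0.30 and 0.47 in p53+/+ NPCs. Acsl5, known from intestine and from mitochondria, was at 47.4, 50.6 and 67.4 CPM in p53-/- co-culture, against 67.7, 57.4 and 82.1 CPM in p53-/- NPCs alone. Its log2 change was -0.33 ± 0.16 in p53-/- NPCs (adjusted p = 0.139), which passed with the experiment number as a block (adjusted p = 0.0223) and in 1 of 15 fits with a library left out, the one leaving out co-cultured p53-/- NPCs of 1_10 (-0.50, adjusted p = 0.0298), and -0.10 ± 0.16 in p53+/+ NPCs (adjusted p = 0.653, edgeR).

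**Figure D2:**
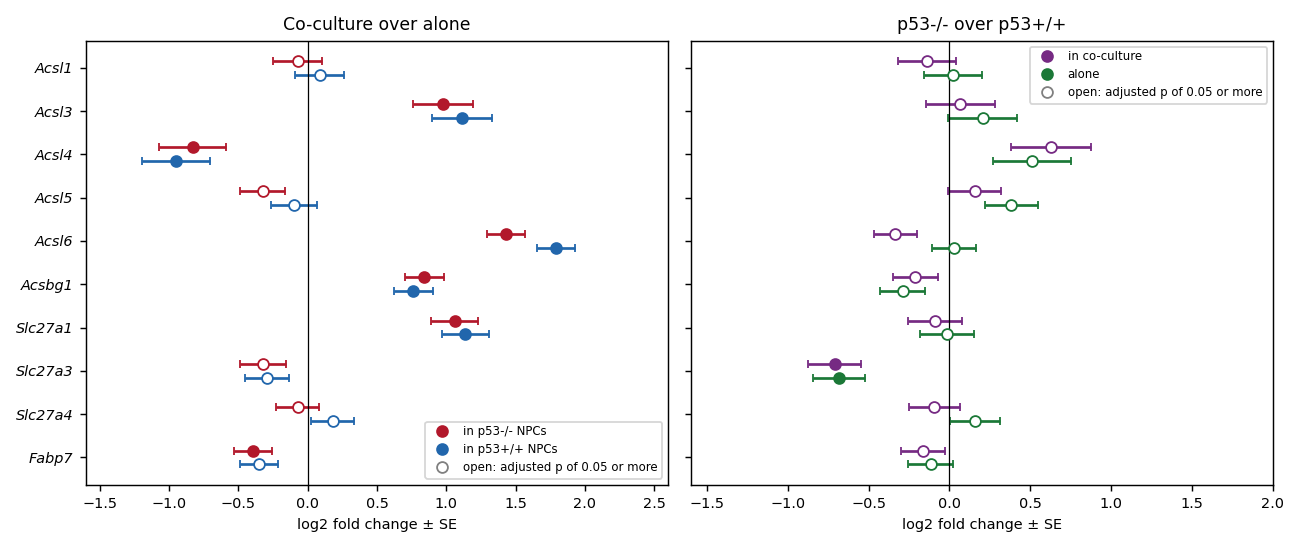
Log2 fold changes ± SE (edgeR) of the 10 genes, with co-culture over NPCs alone on the left (p53-/- above p53+/+ in each row) and p53-/- over p53+/+ on the right (co-culture above NPCs alone). Filled points passed an adjusted p of 0.05. Acsl3, Acsl6, Acsbg1 and Slc27a1 lie to the right in co-culture and Acsl4 to the left in both genotypes, while Slc27a3 is the one gene filled on the right panel.

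The balance among the 5 Acsl genes differed between co-culture and NPCs alone. The shares described here are of the summed Acsl level per kb of exon in a library, and carry no test. Acsl4 made up 8.20 ± 3.47% in p53-/- co-culture, 5.50 ± 1.88% in co-cultured p53+/+ NPCs, 20.9 ± 1.94% in p53-/- NPCs alone and 17.8 ± 0.870% in p53+/+ cells alone (SD, n = 3 each). Acsl6 made up 13.0 ± 1.44%, 16.9 ± 0.931%, 7.16 ± 0.898% and 8.48 ± 1.08% in the same order. The shares of Acsl5 were 9.93 ± 2.59%, 9.23 ± 2.23%, 18.0 ± 1.02% and 16.7 ± 0.952%, and those of Acsl1 1.85 ± 0.320%, 2.10 ± 0.316%, 2.89 ± 0.798% and 3.38 ± 0.623%. These 2 genes were not called in co-culture without the block, and a share also falls when another gene of the sum rises. Acsl3 held the largest share throughout, at 67.0 ± 6.94% and 66.3 ± 5.14% in p53-/- and p53+/+ co-culture, and 51.0 ± 2.77% and 53.6 ± 1.89% in p53-/- and p53+/+ NPCs alone. The log2 ratio of Acsl6 to Acsl4 counts averaged 1.28 ± 0.63 in p53-/- co-culture and 2.19 ± 0.42 in co-cultured p53+/+ NPCs, against -1.03 ± 0.31 in p53-/- NPCs alone and -0.56 ± 0.18 in p53+/+ cells alone. Reads of Acsl6 thus outnumbered those of Acsl4 in all 6 co-culture libraries and were fewer in all 6 libraries of NPCs alone. The summed Acsl level was 134 ± 24.7 and 130 ± 22.5 CPM per kb in p53-/- and p53+/+ co-culture, against 90.3 ± 15.3 and 74.6 ± 6.78 CPM per kb in p53-/- and p53+/+ NPCs alone.

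**Figure D3:**
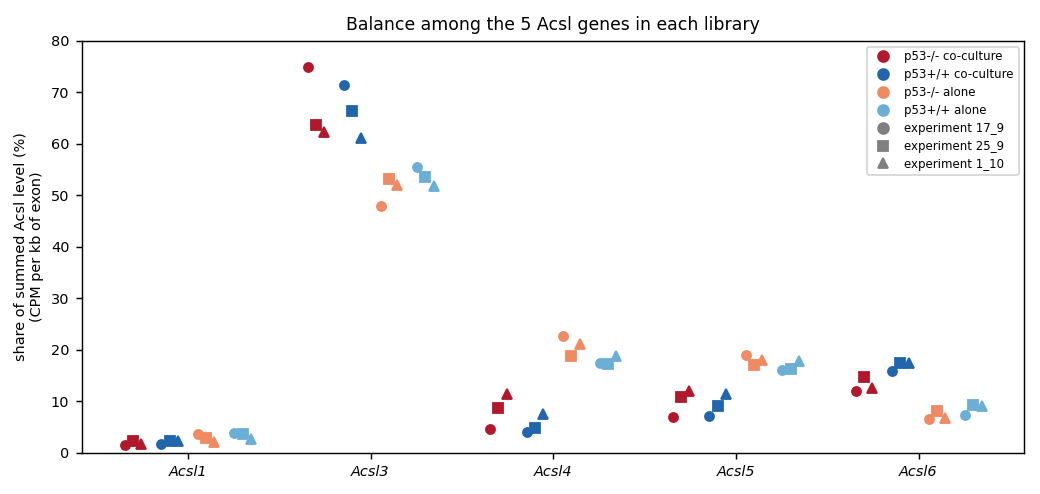
Share (%) of each Acsl gene in the summed CPM per kb of exon of the 5 Acsl genes, 1 point per library, coloured by group and shaped by experiment. In the co-culture libraries the Acsl4 share is between 4.01 and 11.4% and the Acsl6 share between 11.9 and 17.5%, whereas in NPCs alone the Acsl4 share is between 17.2 and 22.7% and the Acsl6 share between 6.59 and 9.19%.

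Loss of p53 was then compared within each culture condition. In co-culture, 1 of the 10 genes was lower in p53-/- NPCs and none was higher, where 4.93% of all genes tested were called lower and 3.24% higher. In NPCs alone, the same gene was lower and none was higher, where 4.27% of all genes were lower and 2.02% higher. With the experiment number as a block, 1 was lower and 1 higher in co-culture, and 1 was lower and 2 were higher alone, where of all genes the block called 10.9% lower and 9.99% higher in co-culture and 9.33% lower and 7.25% higher alone. The median log2 change of the 10 genes was -0.11 in co-culture, against 0.02 over all genes, and 0.02 in NPCs alone, against 0.05 over all genes.

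Slc27a3, a transport protein with acyl-CoA synthetase activity known as FATP3, was the gene that was lower without p53 in both conditions. It was at 5.36, 5.93 and 5.58 CPM in p53-/- co-culture, against 8.94, 10.4 and 8.27 CPM in co-cultured p53+/+ NPCs, for experiments 17_9, 25_9 and 1_10. In NPCs alone it was at 7.12, 7.83 and 6.10 CPM in p53-/- cells, against 11.1, 10.7 and 12.1 CPM in p53+/+ cells. The groups did not overlap in either condition, as for 16.9% of all genes in that direction in co-culture and 12.4% in NPCs alone. Across both conditions, every p53-/- library lay below every p53+/+ library, for which no share of all genes was computed. The log2 change was -0.71 ± 0.16 (SE, 1.64-fold lower, adjusted p = 0.0198) in co-culture and -0.68 ± 0.16 (1.60-fold lower, adjusted p = 0.0262) in NPCs alone (edgeR, n = 3 each). These values rest on 103 to 238 reads per library. In each condition the call was lost in 8 of 15 fits that left out a library or an experiment, with changes between -0.78 and -0.62 in co-culture and between -0.81 and -0.57 alone. In co-culture these were the fits without any 1 of the 3 p53-/- libraries, without the p53+/+ library of 17_9 or 25_9 (adjusted p between 0.0520 and 0.100) and without each experiment (between 0.0770 and 0.364). In NPCs alone they were the fits without any 1 of the 3 p53+/+ libraries, without the p53-/- library of 17_9 or 1_10 (adjusted p between 0.0558 and 0.0828) and without each experiment (between 0.132 and 0.200). The highest of these came without experiment 25_9 in both conditions. Without both libraries high in Acta2, the change was -0.71 ± 0.16 in co-culture (adjusted p = 0.0162) and -0.70 ± 0.19 in NPCs alone, where the call was lost (adjusted p = 0.0848).

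Acsl4 and Acsl5 had higher values in p53-/- NPCs in each experiment of both conditions. Neither was called over all 12 libraries without the block, and with it Acsl4 was called in both conditions and Acsl5 in NPCs alone. For Acsl4, the log2 ratio of p53-/- to p53+/+ NPCs was 0.22, 0.67 and 0.84 in co-culture and 0.46, 0.39 and 0.64 alone, for experiments 17_9, 25_9 and 1_10. Its log2 change was 0.63 ± 0.25 in co-culture (SE, adjusted p = 0.133, with the block 0.0182) and 0.51 ± 0.24 alone (adjusted p = 0.223, with the block 0.0462, edgeR, n = 3 each). The change of Acsl4 in co-culture fell to 0.28 without the p53-/- library of 1_10 and reached 0.84 without that of 17_9, where it was called (adjusted p = 0.0426). In NPCs alone it was 0.32 without the p53-/- library of 1_10. For Acsl5 the log2 ratio was 0.03, 0.09 and 0.31 in co-culture and 0.33, 0.31 and 0.48 alone. Its log2 change was 0.16 ± 0.16 in co-culture (adjusted p = 0.589, with the block 0.352) and 0.38 ± 0.16 alone (adjusted p = 0.180, with the block 0.0308, edgeR, n = 3 each), which was 0.21 without the p53-/- library of 1_10. Acsl4 groups did not overlap in NPCs alone, where this held in that direction for 1 of the 10 genes and 15.0% of all genes. In co-culture they overlapped, and no member of the 10 stood wholly higher there, against 14.4% of all genes. Those of Acsl5 overlapped in both conditions.

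Acsl6 and Acsl1 had lower values in all 3 p53-/- co-culture libraries than in any p53+/+ co-culture library, without passing the test. Groups that did not overlap in this direction were found for 3 of the 10 genes, Slc27a3 included, and for 16.9% of all genes. For Acsl6 the log2 change was -0.34 ± 0.13 (SE, adjusted p = 0.139, with the block 0.0863) and for Acsl1 it was -0.14 ± 0.18 (adjusted p = 0.670, with the block 0.524, edgeR, n = 3 each). In NPCs alone both were close to 0, at 0.03 ± 0.14 for Acsl6 and 0.02 ± 0.18 for Acsl1. Acsbg1 changed by -0.21 ± 0.14 in co-culture and -0.29 ± 0.14 alone (adjusted p = 0.374 and 0.229), and its log2 ratio was below 0 in each experiment of both conditions. The log2 changes of Acsl3, Slc27a1, Slc27a4 and Fabp7 lay between -0.16 and 0.21, with adjusted p of 0.490 or more in both conditions.

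**Figure D4:**
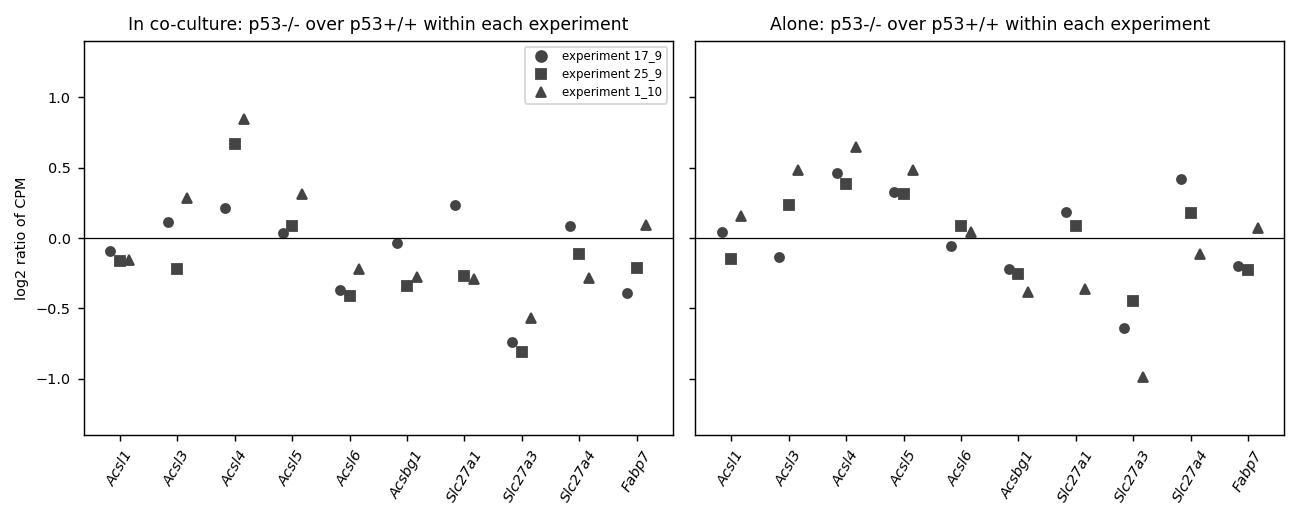
Log2 ratio of CPM, p53-/- over p53+/+ NPCs of the same experiment, for the 10 genes in co-culture (left) and alone (right), 1 point per experiment. Slc27a3 is below 0 in all 3 experiments of both conditions, between -0.81 and -0.57 in co-culture and between -0.99 and -0.45 alone, and Acsl4 is above 0 in all of them.

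Whether the response to co-culture differed between genotypes was tested as an interaction. None of the 10 genes was called, and none had an unadjusted p under 0.05, by edgeR, while 0.0364% of all genes were called lower, 0 higher, and 7.10% had an unadjusted p under 0.05. None of the 10 was called with the block either, where 0.0218% of all genes were higher and 0.0582% lower, nor by DESeq2, which called 0.0814% higher and 0.145% lower, or 1.65% and 0.564% with the block. The interaction of Acsl6 was the nearest, with a response in p53-/- NPCs smaller by a log2 value of -0.36 ± 0.19 (SE, unadjusted p = 0.0789, adjusted p = 0.730), and the response was the smaller one in p53-/- NPCs in all 3 experiments. Its 95% interval ran between -0.77 and 0.05. For Acsl4 the interval ran between -0.63 and 0.86, for Acsl3 between -0.79 and 0.52 and for Slc27a1 between -0.59 and 0.43. A p that misses the threshold does not show that the responses were alike, and these intervals give the sizes that could have gone unseen.

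Enzymes and carriers around the 10 genes were then counted, against the shares of all genes given above. In co-culture these were 18.8% higher and 17.0% lower in p53-/- NPCs and 21.2% and 18.3% in p53+/+ NPCs, and with the block 24.3% and 23.2%, and 26.2% and 24.1%. With loss of p53 they were 3.24% higher and 4.93% lower for co-culture, 2.02% and 4.27% for NPCs alone, and with the block 9.99% and 10.9%, and 7.25% and 9.33%. Lists of this size near those shares give no result about the list. Of 15 other acyl-CoA synthetases, 8 could be tested, and 5 were higher in co-culture in each genotype with none lower. Acsf2, a medium-chain synthetase, was at 108 ± 20.4 CPM in p53-/- co-culture, against 38.2 ± 6.31 CPM alone, and at 150 ± 14.0 CPM in co-cultured p53+/+ NPCs, against 40.1 ± 3.87 CPM alone (SD, n = 3 each). Its log2 changes were 1.50 ± 0.16 and 1.90 ± 0.16 (SE, adjusted p = 3.41e-05 and 3.94e-06, edgeR). Acss1, the mitochondrial acetyl-CoA synthetase, changed by 0.96 ± 0.11 and 1.17 ± 0.11, and Acsf3, the mitochondrial malonyl-CoA synthetase, by 0.53 ± 0.14 and 0.79 ± 0.14 in p53-/- and p53+/+ NPCs. The other called ones, Acsm5 and Acss3, averaged at most 2.54 CPM in any group and are named with their values seen. With loss of p53, Acsf3 was lower in co-culture (-0.58 ± 0.14, adjusted p = 0.0234 by edgeR) and none was called in NPCs alone. With the block, 2 were lower in co-culture and 2 were higher in NPCs alone with loss of p53. It also called 1 lower in p53-/- co-culture against p53-/- NPCs alone, and 6 higher in place of 5 in the same contrast of p53+/+ NPCs.

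Of 11 other carriers and uptake genes, 6 could be tested. In co-culture, 2 were higher and 1 lower in p53-/- NPCs, and 1 was higher and 2 lower in p53+/+ NPCs. Mfsd2a, the transporter of lysophospholipids with docosahexaenoic acid, fell by 1.65 ± 0.35 on the log2 scale in p53-/- co-culture and by 0.96 ± 0.34 in co-cultured p53+/+ NPCs (SE, adjusted p = 0.00309 and 0.0390, edgeR). The first was -1.001 without the p53-/- library of 17_9 grown alone, high in Acta2, and -0.84 without experiment 17_9, and stayed called. The second was lost in 7 of 15 fits with a library or an experiment left out, those without any 1 of the 3 co-cultured p53+/+ libraries, the p53+/+ library of 17_9 (-0.70, adjusted p = 0.141) or 25_9 alone, or experiment 25_9 or 1_10. Cd36, a fatty acid receptor, was lower in co-cultured p53+/+ NPCs (-1.29 ± 0.40, adjusted p = 0.0230), with 5.22 ± 0.370 CPM in co-culture and 12.8 ± 7.14 CPM alone (SD, n = 3 each), and lost the call in 5 of 15. These were the fits without any 1 of the 3 co-cultured p53+/+ libraries, experiment 25_9, or the p53+/+ library of 17_9 grown alone, high in Acta2, which took the change to -0.74 (adjusted p = 0.127). Without both libraries high in Acta2 it was also -0.74 but called (± 0.19, adjusted p = 0.0105). Fabp4, called higher in both genotypes, and Fabp3, called higher in p53-/- NPCs, averaged at most 3.55 CPM in any group and are named with their values seen. No gene of this list was called with loss of p53. With the block, 1 was lower with loss of p53 in NPCs alone and 2 were higher in co-cultured p53+/+ NPCs.

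Acyl-CoA binding proteins, which hold the products of the synthetases, were tested for 5 of 7 genes. In p53-/- co-culture 2 were higher and 1 lower, and in co-cultured p53+/+ NPCs 3 were higher. Dbi, the main acyl-CoA binding protein, changed by 0.39 ± 0.13 and 0.68 ± 0.14, and Acbd5 by 0.64 ± 0.13 and 0.54 ± 0.13 in p53-/- and p53+/+ NPCs (log2 ± SE, adjusted p between 0.00178 and 0.0384, edgeR). Acbd4 was higher in p53+/+ NPCs (0.70 ± 0.19) and Acbd6 was lower in p53-/- NPCs (-0.36 ± 0.13), the weakest call of this list, lost in 12 of 15 fits with a library or an experiment left out. The call of Dbi in p53-/- NPCs was lost in 8 of 15 (adjusted p up to 0.261, without experiment 25_9), those without any 1 of the 3 p53-/- libraries alone, the p53-/- co-culture library of 17_9 or 25_9, the p53+/+ library of 25_9 alone, or experiment 17_9 or 25_9. Dbi was lower with loss of p53 in co-culture (-0.51 ± 0.14, adjusted p = 0.0345 by edgeR). With the block, 2 were lower in co-culture with loss of p53, and 1 was higher and 1 lower in NPCs alone, while 3 in place of 2 were higher in p53-/- co-culture against NPCs alone.

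Acyl-CoA thioesterases reverse the step that the synthetases carry out, and 10 of 16 could be tested. In co-culture, 3 were higher and 2 lower in p53-/- NPCs, and 5 were higher and 2 lower in p53+/+ NPCs, or 4 higher and 3 lower, and 5 higher and 3 lower, with the block. Acot11 was higher in co-culture (1.22 ± 0.15 in p53-/- and 0.73 ± 0.15 in p53+/+ NPCs, log2 ± SE) and Acot7, a thioesterase abundant in neurons, was lower (-1.12 ± 0.18 and -0.87 ± 0.18). Acot11 was the only gene of this list called with loss of p53, and was lower in both conditions. It was at 105 ± 9.53 CPM in p53-/- co-culture, against 193 ± 9.59 CPM in co-cultured p53+/+ NPCs, and at 45.3 ± 8.87 CPM in p53-/- NPCs alone, against 116 ± 13.4 CPM in p53+/+ NPCs alone (SD, n = 3 each). The log2 changes were -0.87 ± 0.15 (SE, adjusted p = 0.00434) and -1.36 ± 0.15 (adjusted p = 0.000147, edgeR).

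Glycerolipid acyltransferases use the acyl-CoA to build phospholipids and triglycerides, and 18 of 19 could be tested. In co-culture, 4 were higher and 4 lower in p53-/- NPCs, and 5 were higher and 3 lower in p53+/+ NPCs. Gpam, which starts glycerolipid synthesis at mitochondria, was at 386 ± 52.7 CPM in p53-/- co-culture, against 123 ± 39.4 CPM alone, and at 493 ± 58.4 CPM in co-cultured p53+/+ NPCs, against 162 ± 25.0 CPM alone (SD, n = 3 each). Its log2 changes were 1.66 ± 0.21 and 1.61 ± 0.21 (SE, adjusted p = 0.000129 and 0.000113, edgeR). Agpat3 changed by 1.25 ± 0.15 and 1.24 ± 0.15, Mboat2 by 0.89 ± 0.11 and 0.87 ± 0.11 and Lpcat4 by -1.07 ± 0.22 and -0.77 ± 0.21 in p53-/- and p53+/+ NPCs. With loss of p53, Agpat3 was lower in co-culture (-0.60 ± 0.15, adjusted p = 0.0292) and alone (-0.62 ± 0.15, adjusted p = 0.0317), and Agpat4 was lower in co-culture (-0.72 ± 0.16, adjusted p = 0.0162, edgeR). With the block, 6 of the 18 were lower in co-culture with loss of p53 in place of 2, where it called 10.9% of all genes lower in place of 4.93%, and 6 in place of 5 were higher in co-cultured p53+/+ NPCs against NPCs alone.

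Of the named calls on co-culture in these lists, those of Acsf2, Acss1, Acot7, Gpam, Agpat3 and Mboat2 held in all 15 fits with a library or an experiment left out in both genotypes. Others were lost in 3 of 15 for Acsf3 in p53-/- NPCs and for Acbd4 and Lpcat4 in p53+/+ NPCs, in 1 for Acbd5 in p53-/- and 2 in p53+/+ NPCs, and in 1 for Dbi and Acot11 in p53+/+ NPCs. In co-culture, the call on loss of p53 was lost in 7 of 15 for Acsf3, Dbi and Agpat3, in 5 for Agpat4 and in 1 for Acot11, with the highest adjusted p in each case without experiment 25_9 (0.349, 0.443, 0.349, 0.328 and 0.214 in that order). In NPCs alone it was lost in 9 of 15 for Agpat3 (adjusted p up to 0.215) and in none for Acot11. Without both libraries high in Acta2, the co-culture calls of Dbi, Acbd6 and Acss3 in p53-/- NPCs were lost. So were that of the acyltransferase Dgat2 in p53+/+ NPCs and that of Agpat3 on loss of p53 in NPCs alone. Median log2 changes of the lists in co-culture were 0.74 in p53-/- and 1.00 in p53+/+ NPCs for the other synthetases, 0.12 and -0.28 for carriers and uptake, 0.39 and 0.54 for acyl-CoA binding proteins, 0.24 and 0.54 for thioesterases and 0.05 and 0.28 for acyltransferases.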

How the data were processed

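RNA-seq libraries were made with a stranded mRNA kit. Paired reads were aligned by the authors with TopHat2 2.0.11 (mm9), HTSeq 0.6.1 gave the reads per gene, and the deposited values are these raw counts. Not given in the sources used here were strand setting and annotation version, so overlapping and antisense genes are uncertain. The labels give C57BL/6 and the study's methods a mixed 129 and C57BL/6J background.

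Counts of 24108 genes (18810 with a count) were filtered with filterByExpr, scaled by TMM (factors 0.961 to 1.04) and fitted in edgeR 4.0.16 (R 4.3.3, limma 3.58.1) by quasi-likelihood, with 1 coefficient per group and all 12 libraries, after a check on simulated counts. The study's methods name DESeq2 with no design formula. DESeq2 1.42.0 was an alternative. P-values were adjusted by Benjamini-Hochberg over 13745 genes, with a threshold of 0.05. SE is the log2 change divided by the root of F, and intervals are 95%. Same-numbered libraries deviated together (r between 0.128 and 0.618 in 18 of 18 pairs, against -0.608 to 0.241 in 36 other pairs) and share a code in the column names of the table, called an experiment here, so the block is given where it changes a call. What the codes stand for is not given in the sources used here. The table names groups and experiments, which could not be matched to the repeat numbers of the labels. Nothing states whether experiments used separate animals, so p-values measure the spread between these libraries.

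Levels per kb used the merged exons of all protein-coding transcripts of a gene in GENCODE vM21, another build than mm9, and no coordinates of the reads were used. Exons that cells do not use lengthen this union, which was 7629 bases for Acsl6, and lower the level per kb, so ranks between genes are approximate. Figures were drawn with matplotlib 3.10.9. All 10 genes were named. From the other lists, up to 4 called genes with the largest change and a mean log2 CPM of 2 or more were eligible. The members and lists were chosen with earlier results of these data known. A planned comparison of protein sequences was not run here.

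Alternatives were other scalings (RLE, upper quartile, library size), DESeq2, the block in both tools, no filter on low counts, a minimum of 10 counts per library, only the groups compared, a threshold of 0.01, each library and each experiment left out, and both libraries high in Acta2 left out (chosen after seeing the data).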

Additional observations from a re-analysis of the deposited data

How the results depend on the processing

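Acsl3, Acsl6, Acsbg1 and Slc27a1 stayed higher in co-culture in both genotypes under all 15 fits with a library or an experiment left out and under every other setting run. No call of the 10 genes reversed its direction. With libraries or experiments left out in turn (leave-one-out), the number of members higher in co-culture was 4 to 4 in both genotypes, and the number lower was 0 to 3 in p53-/- and 0 to 2 in p53+/+ NPCs. With loss of p53, 0 to 1 were higher and 0 to 1 lower in co-culture, and 0 to 0 were higher and 0 to 1 lower in NPCs alone. The number lower in p53+/+ co-culture was 2 in place of 1 with library size alone, DESeq2, and the replicate block in edgeR or DESeq2 (Fabp7 was added). The number lower in p53-/- co-culture was 1 in place of 2 with upper-quartile scaling, at least 10 counts in every library, only the groups compared, or without both libraries high in Acta2 (Fabp7 was lost), and 0 at a threshold of 0.01. Slc27a3, the gene lower with loss of p53 in NPCs alone, was not called with only the groups compared (adjusted p = 0.0966), without both libraries high in Acta2 or at a threshold of 0.01, which left 0, and at that threshold 0 were left in co-culture too. The cause of these losses was not tested. With the replicate block, which pairs libraries of an experiment, 2 were higher with loss of p53 in NPCs alone (Acsl4 and Acsl5) and 1 in co-culture (Acsl4) in place of 0, in edgeR and DESeq2 alike. The replicate block also called Acsl5 lower in p53-/- co-culture and changed no other call of the 10 genes. Of single-gene values of the 10 genes, called or not, 715 of 750 with a library or experiment left out kept their side of the threshold. Under other settings, 518 of 540 did. For the other lists these counts were 702 of 853 and 568 of 618, taken only over genes called in the main fit. Values not called at first mostly stay so, and they enter only the counts of the 10 genes, so the stability of the 2 sets cannot be compared. Slc27a3 and Acsl1 had the fewest reads of the 10 genes but SEs of 0.16 to 0.18, below the 0.24 to 0.25 of Acsl4.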
